A study of Mus musculus with 8 samples.

Results

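Cartilage and bone lineage genes were followed in mouse embryonic fibroblasts that carried mutant STAT5. The set was a list of 10 genes, the regulators Sox5, Sox6, Sox9, Runx2 and Sp7, the cartilage matrix genes Acan, Comp and Matn2, and the bone genes Alpl and Spp1. A probe set, the group of short probes that reads 1 transcript on an Affymetrix array, was taken as a member where its annotation gave exactly 1 symbol and that symbol was on the list. This gave 8 genes on 20 probe sets, out of 18193 named genes and 45037 tested probe sets. Runx2 and Spp1 were paired with no probe set by the annotation used and are not analysed here.

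All cells were Stat5-null embryonic fibroblasts of the C57BL/6 strain, infected with a retrovirus that returned a STAT5 mutant. In EA cells the binding domain was altered from EE to AA, and in YF cells the phosphorylated tyrosine was replaced (Y694F). The 4 groups were EA with growth hormone for 120 minutes, EA without stimulation, YF with growth hormone for 120 minutes and YF without stimulation, with 2 arrays each. No cells with intact STAT5 were among them, so EA and YF are compared with each other, and the mutant cannot be told apart from the infected cell population that carried it. The arrays of a group are described as biological duplicates, but the labels do not say whether they came from separate infections, so p-values measure the spread between these arrays.

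Cartilage cells are specified by Sox9, which binds enhancers of matrix genes, while Sox5 and Sox6 bind nearby and help Sox9 to keep those genes on. Bone-forming cells depend on Runx2 and then on Sp7, also called osterix, before they make alkaline phosphatase (Alpl) and osteopontin (Spp1). Embryonic fibroblasts are a mixed mesenchymal population that can hold precursors of both lineages, and growth hormone is known to promote growth of the cartilage plates of long bones.

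Windows upstream of transcript starts are shown for Sox5 and Sox6, because of the 8 genes these related factors differed most between the mutants, in opposite directions. Of the 6 Sox6 windows in the table, the 2 shown were picked because they alone hold the motif marked in them. The sequences are from RefSeq (GRCm38.p6) and run 5′ to 3′ over the 250 bases before an annotated start. Capitals mark TTCNNNGAA, the core of a STAT5 site, and no base is in capitals where it is absent. The Sox5 window is chr6:143947107-143947356 on the minus strand. Both Sox6 windows are on the minus strand, at chr7:116031048-116031297 and chr7:115846141-115846390.
Sox5: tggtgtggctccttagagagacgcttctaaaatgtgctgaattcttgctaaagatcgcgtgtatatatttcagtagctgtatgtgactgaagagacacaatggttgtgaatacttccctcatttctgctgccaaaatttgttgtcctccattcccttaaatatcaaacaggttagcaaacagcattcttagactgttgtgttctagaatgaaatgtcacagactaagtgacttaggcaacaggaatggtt
Sox6, upstream window: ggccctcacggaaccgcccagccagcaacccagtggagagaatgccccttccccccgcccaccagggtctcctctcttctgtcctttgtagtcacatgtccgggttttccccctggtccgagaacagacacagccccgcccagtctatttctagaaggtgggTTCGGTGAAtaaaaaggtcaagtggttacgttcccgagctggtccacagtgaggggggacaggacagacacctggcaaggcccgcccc
Sox6, downstream window: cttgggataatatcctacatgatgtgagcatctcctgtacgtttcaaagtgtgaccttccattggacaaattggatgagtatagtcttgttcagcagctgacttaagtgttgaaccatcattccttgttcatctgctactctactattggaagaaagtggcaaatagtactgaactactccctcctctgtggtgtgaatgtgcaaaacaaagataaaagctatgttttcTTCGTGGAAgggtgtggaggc

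In the upstream Sox6 window the match was TTCGGTGAA, beginning 88 bases before the start, and in the downstream one it was TTCGTGGAA, beginning 21 bases before it. The Sox5 window held none. The sequence table gave 13 windows for 6 of the 10 genes, of which 6 belonged to Sox6, and 2 of the 13 held TTCNNNGAA. Among all 32851 windows of the table, 7.02% held it. The motif reads the same on both strands. The Sox motif AACAAT, searched on both strands, was in 1 of the 13 windows, a Sox6 window not shown, and in 9.42% of all windows. These matches are letters in a window, and which start the cells use was not tested.

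Values are log2 expression values as deposited. They formed a dense low group, and a mean below 4 is used as its bound. Of all probe sets 55% had a mean below it, as had 14 of the 20 member probe sets. Differences are given on the log2 scale, EA minus YF or hormone minus none. Where 1 side lies in the low group, the size of a difference, and its place in an order of sizes, is uncertain on the log2 scale as well. The first principal component held 69.9% of the variance and separated EA arrays (-66.4 to -61.4) from YF arrays (62.4 to 64.9). Replicate 1 of YF with hormone stood apart on the second component, at 55.8 against 3.28 for its partner and -25.8 and -32.6 for unstimulated YF. Replicates correlated at 0.996 to 0.998 across probe sets, which are not independent. The brightest Stat5a probe set was lower in EA cells, with differences of -3.62 with hormone and -2.79 without it (limma adjusted p = 0.00361 and 0.00713). The other Stat5a probe set lay in the low group, at 2.36 to 2.53, and did not pass, so this difference rests on 1 of 2 probe sets.

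Cell identity was read from lists of markers. The fibroblast genes Vim, Fn1, Pdgfra and Pdgfrb were well above the bound on every array, at 11.19 or higher. Of the 7 measured fibroblast markers, 4 were lower in EA cells averaged over treatments. On that average 22.9% of all named genes passed, 12.3% higher and 10.5% lower. Thy1 and Dcn differed by -4.96 and -4.45 (adjusted p = 1.79e-05 and 0.00026, limma), Fn1 by -0.15 at a high level, and Lum by -0.92 inside the low group. Dcn also lay in the low group in EA cells, with means of 2.92 with hormone and 3.74 without it. The size of its difference is therefore uncertain. The summed linear level of the 7 fibroblast markers was 62097 to 64433 in EA cells and 68357 to 70900 in YF cells. The pluripotent stem cell markers Pou5f1, Utf1, Dppa5a and Zfp42 lay below the bound in every group. Nanog passed as lower in EA cells averaged over treatments, with EA means in the low group (3.30 with hormone and 3.18 without it). Its YF means were 4.24 with hormone and 4.48 without it. All 6 skeletal muscle markers lay below the bound in every group. Of 6 macrophage markers, Ptprc, Adgre1, Lyz2 and Itgam lay below it in every group, while Cd68 was higher in EA cells by 3.15 (limma adjusted p = 0.000259). The sixth, Csf1r, read 7.79 to 8.62 in EA cells and 8.20 to 9.06 in YF cells and did not pass. Of 5 endothelial markers, Pecam1, Cdh5, Kdr and Emcn lay below it in every group, while Tek was lower in EA cells, with a difference of -1.58 (limma adjusted p = 0.00263). Of 5 epithelial markers, Cdh1, Epcam, Krt8 and Krt18 lay below it in every group, while Krt19 was higher in EA cells by 5.199 (limma adjusted p = 0.000422). Krt18 also passed as higher in EA cells, but inside the low group, at 2.28 to 3.10 on all arrays. Summed levels were 2102 to 2835 in EA cells and 511 to 922 in YF cells for macrophage markers. For epithelial markers they were 682 to 1284 in EA cells and 35 to 67 in YF cells, and for endothelial markers 280 to 327 in EA cells and 706 to 1075 in YF cells. In each of these lists 4 markers lay below the bound. The differences between sums therefore mostly restate Cd68, Krt19 and Tek, and are not separate evidence on a whole list. The Csf1r means were lower in EA cells, opposite in direction to the macrophage sum. The part of these marker differences in the cartilage and bone results was not tested. In bulk RNA, fewer cells of a type and less RNA per cell cannot be told apart.

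The mutant comparison asks how cartilage and bone genes differ between cells with the EA and the YF form. Averaged over treatments, 9 of the 20 member probe sets passed the test in limma (adjusted p under 0.05 over all probe sets), 4 higher and 5 lower in EA cells. Over all probe sets 16.5% passed, 8.17% higher and 8.38% lower. By gene, on the probe set with the highest mean, Sox5, Sox9 and Matn2 were higher, Sox6, Acan and Comp were lower, and Sp7 and Alpl did not pass, against 22.9% of all named genes that passed (12.3% higher and 10.5% lower). With hormone 5 of the 20 probe sets passed, 2 higher and 3 lower, where 10.2% of all did (4.37% higher and 5.8% lower). Without hormone 8 passed, 3 higher and 5 lower, where 10.8% of all did (5.51% higher and 5.25% lower). The count without hormone was 5 with every EA array left out in turn, 5 without YF replicate 2 and 4 without YF replicate 1, and the averaged count was 5 without either EA array with hormone or without EA replicate 1. Without the YF array that stood apart, the counts were 9 on average, 5 with hormone and 7 without it.

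**Figure D1:**
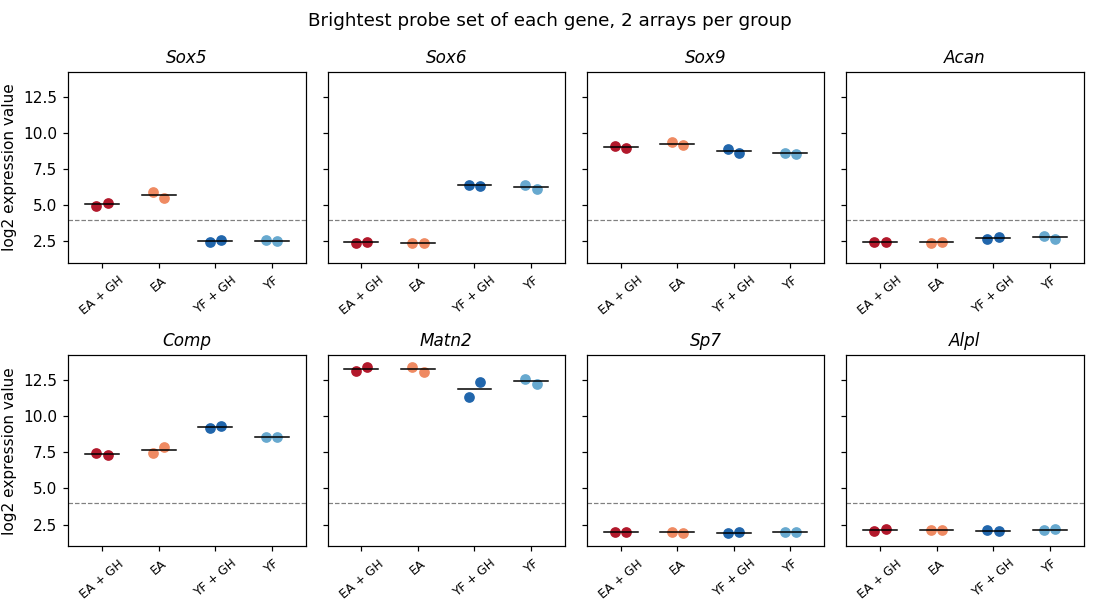
Log2 expression value (vertical axis) of the brightest probe set of each of the 8 genes in EA with hormone (EA + GH), EA, YF with hormone (YF + GH) and YF cells. Each point is 1 array, a bar is the mean of 2 arrays, and the dashed line is the bound of the low group at 4; Sox5 is above it in EA cells alone, Sox6 in YF cells alone, and Acan, Sp7 and Alpl lie below it throughout.

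On 1 of its 7 probe sets Sox5 lay above the low group in EA cells and inside it in YF cells. Its brightest probe set read 4.96 and 5.17 in EA cells with hormone and 5.91 and 5.51 in EA cells without it, against 2.47 and 2.60 in YF cells with hormone and 2.59 and 2.51 in YF cells without it. Every EA array was above every YF array, and the groups did not overlap. The difference was 2.84 averaged over treatments (SE 0.11, n = 2 arrays per group, limma adjusted p = 0.000141), 2.53 with hormone (SE 0.15, adjusted p = 0.0012) and 3.16 without it (SE 0.15, adjusted p = 0.000603). Leaving out the YF array that stood apart gave 2.81 on average. The other 6 Sox5 probe sets lay in the low group on all arrays, at 1.60 to 3.58, and none passed, so the Sox5 difference rests on 1 of 7 probe sets. Which Sox5 transcripts each of them covers was not tested.

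Sox6, the partner of Sox5 in cartilage, showed the opposite distribution. Its brightest probe set read 2.40 and 2.48 in EA cells with hormone and 2.41 and 2.38 in EA cells without it, against 6.38 and 6.34 in YF cells with hormone and 6.40 and 6.11 in YF cells without it. All EA arrays lay in the low group and all YF arrays lay above 6. The difference was -3.89 averaged over treatments (SE 0.07, limma adjusted p = 1.79e-05), -3.92 with hormone (SE 0.10, adjusted p = 0.000103) and -3.86 without it (SE 0.10, adjusted p = 0.000107).

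A second Sox6 probe set showed the same separation, with 2.17 to 2.64 in EA cells and 5.67 to 6.12 in YF cells. It gave -3.54 averaged over treatments (SE 0.15, limma adjusted p = 0.000205), and it passed with and without hormone. Another, whose name carries the suffix by which Affymetrix marks possible matches to other transcripts, read 2.14 to 2.27 in EA cells and 3.16 to 4.85 in YF cells. Its difference was -1.69 on average (SE 0.29, adjusted p = 0.0159), -2.12 without hormone (adjusted p = 0.0335) and -1.26 with hormone, which did not pass (adjusted p = 0.145). Its averaged call ended without any 1 of the EA arrays (limma adjusted p 0.054 to 0.066), and its call without hormone ended without any 1 of them or YF replicate 1 (adjusted p 0.056 to 0.14, differences of -2.13 to -1.55). The fourth Sox6 probe set stayed between 2.13 and 2.21 on all arrays. Thus 3 of the 4 Sox6 probe sets passed in the averaged comparison, all lower in EA cells.

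**Figure D2:**
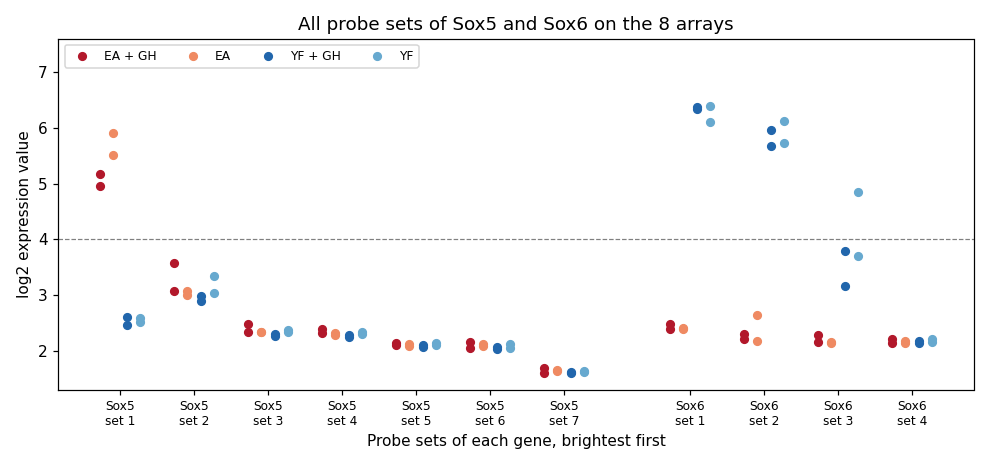
Log2 expression value (vertical axis) of all 7 Sox5 and 4 Sox6 probe sets (horizontal axis, ordered from the highest mean), 1 point per array, coloured by group. The brightest Sox5 probe set is above the dashed bound at 4 in EA cells alone, and the first 2 Sox6 probe sets are above it in YF cells alone.

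Sox9, the main regulator of the cartilage fate, was expressed in all groups and differed far less. It read 9.06 and 8.95 in EA cells with hormone and 9.33 and 9.14 in EA cells without it, against 8.89 and 8.60 in YF cells with hormone and 8.61 and 8.53 in YF cells without it. Every EA array was above every YF array. The group means ran from 9.24 in unstimulated EA through 9.004 in EA with hormone and 8.75 in YF with hormone to 8.57 in unstimulated YF, and no neighbours in that order differed by limma's test. The EA minus YF difference was 0.46 averaged over treatments (SE 0.08, limma adjusted p = 0.02) and 0.67 without hormone (SE 0.12, adjusted p = 0.0273). With hormone it was 0.26, with a 95% interval of -0.04 to 0.56, and did not pass (adjusted p = 0.279). The Sox9 call did not hold in every fit with 1 array left out. Without hormone the difference ran from 0.57 to 0.76 in these fits. It stayed at 0.67 without either EA array with hormone, since those arrays are outside that contrast. The call without hormone ended without any 1 of the EA or unstimulated YF arrays, also where the difference was unchanged. On average it ended without either EA array with hormone, EA replicate 1, or either unstimulated YF array (adjusted p 0.058 to 0.075), with differences of 0.41 to 0.49. The other 2 Sox9 probe sets lay in the low group, at 2.35 to 3.39.

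By the Pearson correlation over the 8 arrays, the genes most like Sox9 among 2383 genes with an SD of at least 0.5 were Gm5617 (0.981), Slc2a9 (0.978) and Ttc39a (0.9748). In all, 188 of these genes correlated above 0.9, and the arrays shared the split into EA and YF, so these values are descriptions without a test.

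The cartilage matrix genes did not move as 1 group. Comp, the cartilage oligomeric matrix protein that binds collagens, was lower in EA cells. It read 7.46 and 7.27 in EA cells with hormone and 7.46 and 7.84 in EA cells without it, against 9.14 and 9.28 in YF cells with hormone and 8.57 and 8.58 in YF cells without it. The YF arrays with hormone were the highest and the EA arrays lay below all YF arrays. The difference was -1.39 averaged over treatments (SE 0.10, limma adjusted p = 0.000999), a 2.61-fold lower level. It was -1.84 with hormone (SE 0.14, adjusted p = 0.0024) and -0.93 without it (SE 0.14, adjusted p = 0.0164). The call without hormone ended when YF replicate 1 or YF replicate 2 was left out (adjusted p = 0.081 and 0.084), with differences of -0.94 and -0.92. Without YF with hormone replicate 1, the difference with hormone was -1.91 (adjusted p = 0.012).

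Matn2, or matrilin-2, a filament-forming matrix protein found in many connective tissues besides cartilage, was higher in EA cells on both of its probe sets. The brighter read 13.09 and 13.39 in EA cells with hormone and 13.39 and 13.04 in EA cells without it, against 11.33 and 12.33 in YF cells with hormone and 12.52 and 12.24 in YF cells without it. The lowest value belonged to the array that stood apart. The averaged difference was 1.12 (SE 0.25, limma adjusted p = 0.0368). It was 0.87 without that array (adjusted p = 0.025). The call ended with limma's trend and robust options (adjusted p = 0.057), with a replicate block (adjusted p = 0.064) and when any of the EA or unstimulated YF arrays was left out (adjusted p 0.076 to 0.13). With hormone the difference was 1.41 (adjusted p = 0.0729), or 0.91 without that array, and without hormone it was 0.83 (adjusted p = 0.269).

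The second Matn2 probe set separated the mutants more tightly. It read 11.93 and 11.79 in EA cells with hormone and 12.07 and 11.97 in EA cells without it, against 10.30 and 10.38 in YF cells with hormone and 10.25 and 10.39 in YF cells without it. Its 4 EA arrays lay above its 4 YF arrays by far more than the spread of replicates. The difference was 1.61 averaged over treatments (SE 0.06, limma adjusted p = 0.000118), a 3.04-fold higher level, with 1.51 with hormone and 1.70 without it (adjusted p = 0.000815 and 0.000582).

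Acan, which encodes aggrecan, the large proteoglycan of cartilage, stayed in the low group in all cells. It read 2.45 and 2.47 in EA cells with hormone and 2.39 and 2.48 in EA cells without it, against 2.67 and 2.77 in YF cells with hormone and 2.87 and 2.70 in YF cells without it. The groups did not overlap, but all values were far below 4, where the meaning of a difference is unknown. It was -0.30 averaged over treatments (SE 0.05, limma adjusted p = 0.0188), and -0.26 with hormone did not pass (adjusted p = 0.119). Without hormone it was -0.35, just under the threshold. That call ended with any array left out, with differences of -0.44 to -0.26. It also ended without arrays with hormone, which are outside that contrast and left the difference at -0.35. The averaged call ended without EA with hormone replicate 1 or 2 or EA replicate 1 (adjusted p 0.064 to 0.068).

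The bone genes gave no signal above the low group. Sp7, the osteoblast regulator downstream of Runx2, read 1.97 and 2.01 in EA cells with hormone and 2.002 and 1.95 in EA cells without it, against 1.94 and 1.97 in YF cells with hormone and 1.999 and 1.98 in YF cells without it. Alpl, the phosphatase that releases phosphate for mineral deposition, read 2.08 to 2.19 on the 8 arrays. Over both treatments together, EA and YF arrays overlapped for both genes, though not for Sp7 with hormone or for Alpl without it. Neither gene passed in any comparison. Values in the low group do not tell a low level from none.

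**Figure D3:**
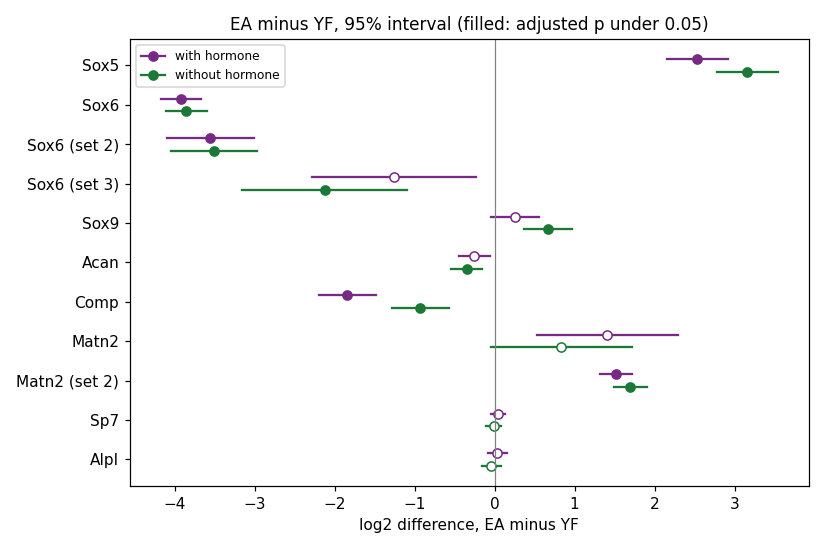
EA minus YF log2 difference (horizontal axis) with its 95% interval from limma for the brightest probe set of each gene and the further probe sets of Sox6 and Matn2 that lay above the low group in some arrays (set 2, set 3), with hormone and without. Filled points passed the test; Sox5 lies at 2.53 and 3.16, Sox6 at -3.92 and -3.86, and Sp7 and Alpl near 0.

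The hormone comparison asks whether 120 minutes of growth hormone altered these genes. None of the 20 member probe sets passed in limma in EA cells, in YF cells or averaged over the mutants, where 0.135%, 0.18% and 0.211% of all probe sets did. None passed in the difference of the hormone responses either, where 0.02% of all did. The counts of member probe sets at an unadjusted p under 0.05 were 1 in EA cells, 1 in YF cells, 1 on average and 2 in the difference, where 5.62%, 11.4%, 7.85% and 9.74% of all probe sets had one. The shares of members were thus near or below those of all probe sets, and the counts after adjustment were also 0 with limma's trend and robust options.

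The probe set behind the count in EA cells was Sox5. Its mean was 5.06 in EA cells with hormone and 5.71 in EA cells without it, a difference of -0.65 (SE 0.15, 95% interval -1.03 to -0.26, limma adjusted p = 0.436). The arrays of these groups did not overlap. With 2 arrays per group that also occurred inside the low group, as for Sp7 in YF cells with a hormone difference of -0.04. In YF cells the Sox5 difference was -0.02 (SE 0.15, limma adjusted p = 0.929), inside the low group. The EA response minus the YF response was -0.62 (SE 0.21, limma adjusted p = 0.446).

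Comp gave the corresponding value in YF cells. Its mean was 9.21 in YF cells with hormone and 8.58 in YF cells without it, a difference of 0.63 (SE 0.14, 95% interval 0.28 to 0.99, limma adjusted p = 0.237), and 0.70 without the array that stood apart. In EA cells the means were 7.37 with hormone and 7.65 without it, a difference of -0.28 (SE 0.14, limma adjusted p = 0.869), and the arrays overlapped. The EA response minus the YF response was -0.91 (SE 0.20, limma adjusted p = 0.339).

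For Sox6 the hormone difference was 0.04 in EA cells and 0.11 in YF cells, with 95% intervals of -0.21 to 0.29 and -0.14 to 0.36. For Sox9 it was -0.23 in EA cells and 0.18 in YF cells (limma adjusted p = 0.869 and 0.546), with an EA minus YF difference of responses of -0.41 (adjusted p = 0.446). The brighter Matn2 probe set gave 0.02 in EA cells and -0.55 in YF cells, the last being -0.06 without the array that stood apart. Responses of Acan, Sp7 and Alpl lay between -0.07 and 0.09 in every hormone contrast. In YF cells the interval for Sox6 leaves room for changes of up to 0.36. Responses of that size are neither shown nor excluded with 2 arrays per group. The interval of the second Sox6 probe set in EA cells ran from -0.69 to 0.39. Both Sox6 probe sets lay in the low group in EA cells, where an interval does not bound a response.

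**Figure D4:**
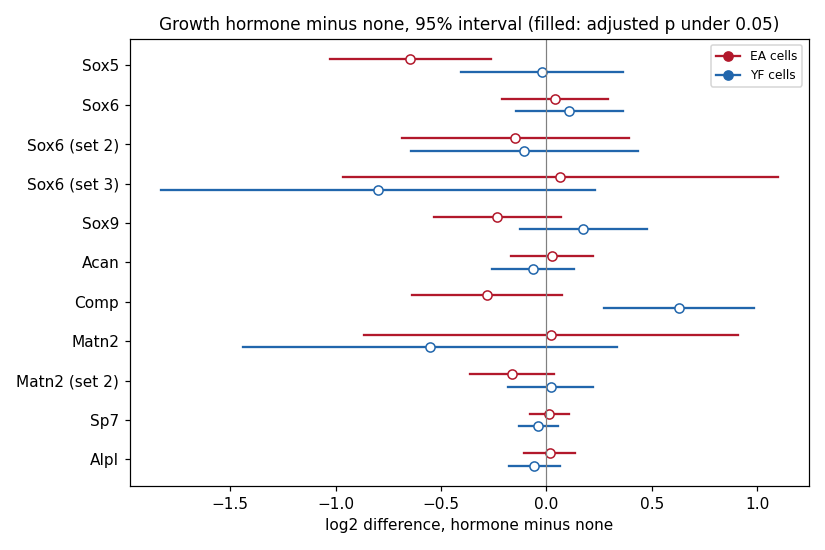
Hormone minus none log2 difference (horizontal axis) with its 95% interval from limma for the same probe sets, in EA and in YF cells. All points are open, since none passed; the intervals of Sox5 in EA cells (-1.03 to -0.26) and Comp in YF cells (0.28 to 0.99) do not include 0.

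The wider cartilage and bone programme was read from 4 lists that include the 8 genes. Here and in the marker lists, genes outside the 8 were read from their brightest probe set alone, and their further probe sets are not given. Col9a3 and Dmp1 had 3 probe sets each, Matn3, Col11a1, Msx1 and Runx3 had 2 each, and Runx1 had 6. Of 17 measured cartilage regulators, 2 were higher and 2 lower in EA cells averaged over treatments (limma), near the 22.9% of all named genes that passed (12.3% higher and 10.5% lower). The median difference was 0.02, as it was for all named genes after rounding to 2 decimals. Apart from the listed Sox genes only Pth1r passed, the receptor for parathyroid hormone-related protein that slows cartilage maturation. It read 2.65 and 2.75 in EA cells with hormone and 3.24 and 3.83 in EA cells without it, against 7.62 and 7.18 in YF cells with hormone and 7.001 and 6.87 in YF cells without it. Its difference was -4.05 (SE 0.17, limma adjusted p = 0.000188), with the EA side in the low group, as for Sox6. Sox13, which belongs to the same family as Sox5 and Sox6, read 5.47 to 5.73 on all arrays and did not pass (difference 0.05, adjusted p = 0.737). Ihh, Gdf5 and Sox8 lay below the bound in all 4 groups.

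Of 24 measured cartilage matrix genes, 2 were higher and 6 lower in EA cells, with a median of 0.01, where 22.9% of all named genes passed (12.3% higher and 10.5% lower). Col2a1, the major collagen of cartilage, read 2.87 and 2.91 in EA cells with hormone and 3.02 and 3.26 in EA cells without it, against 8.69 and 8.32 in YF cells with hormone and 8.18 and 8.48 in YF cells without it. EA arrays were inside the low group and YF arrays far above it, a difference of -5.40 (SE 0.12, limma adjusted p = 3.04e-05). Matn3, another matrilin, differed by -3.41 on a probe set that may match other transcripts, and Prg4, the lubricin of joint surfaces, by -2.22 (adjusted p = 0.00044 and 0.00145, limma). Col11a1, a fibrillar collagen of cartilage, differed by -0.94 (limma adjusted p = 0.0121). Col9a3, a chain of the collagen that coats cartilage fibrils, went the other way. It read 7.17 and 6.82 in EA cells with hormone and 7.71 and 6.58 in EA cells without it, against 3.62 and 4.78 in YF cells with hormone and 5.19 and 4.65 in YF cells without it, a difference of 2.51 (SE 0.38, limma adjusted p = 0.0108). Of the 24 genes, 13 lay below the bound in all 4 groups, among them Acan.

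**Figure D5:**
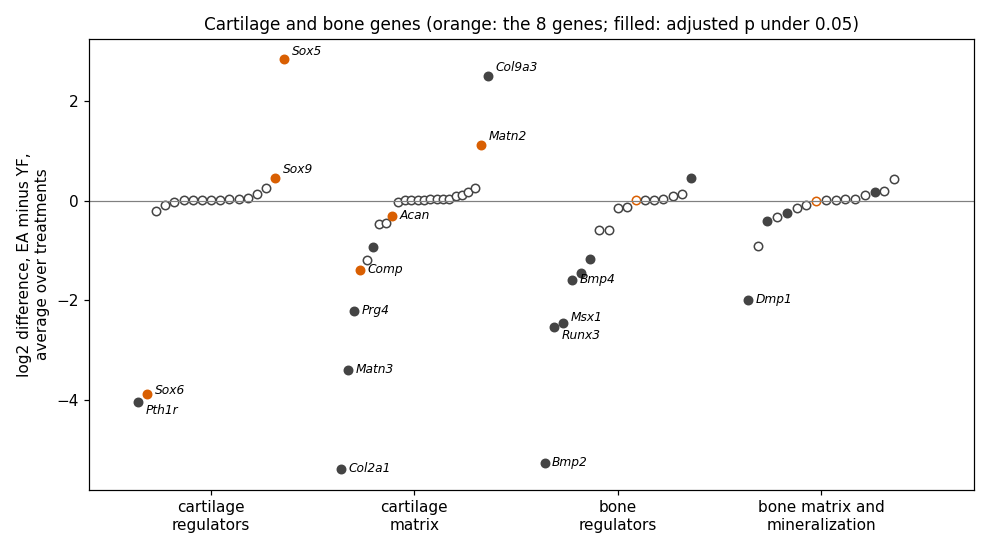
EA minus YF log2 difference averaged over treatments (vertical axis) for each measured gene of 4 lists, ordered within a list, with the 8 genes in orange and genes that passed the test filled. Sox5 (2.84) and Col9a3 (2.51) are the highest, and Col2a1 (-5.40), Bmp2 (-5.28), Pth1r (-4.05) and Sox6 (-3.89) the lowest. Sox5 has its YF side in the low group. Sox6, Pth1r and Col2a1 have their EA side in the low group, as Bmp2 has with hormone.

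Of 17 measured bone regulators, 1 was higher and 6 were lower in EA cells, with a median of -0.14, where 12.3% of all named genes were higher and 10.5% lower. Bmp2, a secreted inducer of bone and cartilage, read 4.10 and 3.41 in EA cells with hormone and 4.46 and 3.95 in EA cells without it, against 9.49 and 9.45 in YF cells with hormone and 9.02 and 9.07 in YF cells without it. Its difference was -5.28 (SE 0.19, limma adjusted p = 0.000121), and its mean in EA cells with hormone, 3.76, lay in the low group. The related ligand Bmp4 differed by -1.60 (SE 0.06, adjusted p = 0.000121, limma), at 11.85 to 12.29 in EA cells and 13.61 to 13.73 in YF cells. The homeobox gene Msx1, which marks skeletal precursors, differed by -2.45, and Runx3, a relative of Runx2 that acts in maturing cartilage, by -2.53 (adjusted p = 3.91e-05 and 0.000262, limma). Runx1 and Msx2 completed the lower genes, and Twist2, a repressor of bone differentiation, was the higher one (0.47, limma adjusted p = 0.0169). Dlx3, Dlx5, Dlx6, Sost and Tnfsf11 lay below the bound in all 4 groups, as Sp7 did.

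Of 16 measured bone matrix and mineralization genes, 1 was higher and 3 were lower in EA cells, with a median of 0.01, near the 22.9% of all named genes that passed. Dmp1, a matrix protein of bone cells, differed by -1.99 (SE 0.23, limma adjusted p = 0.00426) on a probe set that may match other transcripts. The remaining differences were small at high levels, -0.41 for Ogn, -0.24 for Col1a1 and 0.17 for Postn (adjusted p = 0.0102, 0.0315 and 0.023, limma). Genes linked to mineralized tissues, Ibsp, Mepe, Phex, Dspp and Ifitm5, lay below the bound in all 4 groups, as did Alpl. In all 4 lists no gene passed in limma's hormone contrasts in EA cells or in YF cells, where 0.198% and 0.198% of all named genes did, or on average over the mutants, where 0.319% did.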

How the data were processed

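RNA of 8 samples was measured on Affymetrix arrays. The log2 expression values per probe set were deposited by the authors. The submitters' processing notes name GCOS and RMA, with no settings. The table had 0 columns of no sample. Of 45101 probe sets, 64 controls were left out. Samples were grouped by their labels.

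The deposited log2 values were tested with limma 3.58.1 (R 4.3.3), lmFit and eBayes on 4 group means over all 8 arrays, two-sided, in 7 contrasts, with Benjamini-Hochberg adjustment over 45037 probe sets. There were 4 residual and 1.26 prior degrees of freedom. The code was tested on simulated data. Precision is limited by the number of arrays.

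The members and lists were chosen with earlier results of these data known. Named were all member probe sets, Stat5a, up to 4 called genes per cartilage or bone list with the largest averaged difference, up to 2 called in a hormone contrast, and 3 genes most like Sox9 (none for Runx2, not analysed here). Other genes were named after their values were seen. A gene is represented by its brightest probe set. Summed marker levels add 2 to the power of each marker's value. Alternatives were a replicate block, quantile normalization, median centring, a filter at a mean of 4, trend and robust options, the contrast's arrays alone, a log2 change of at least 1, the mean over a gene's probe sets, and leaving out each array. Promoter windows came from RefSeq.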

Additional observations from a re-analysis of the deposited data

How the results depend on the processing

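With each array left out in turn, the count of member probe sets that passed ran from 5 to 9 in the averaged mutant comparison, from 5 to 6 with hormone and from 4 to 7 without it, and stayed at 0 in every hormone contrast. Without hormone it was 5 with the filter at a mean of 4, which removes Sox5, Acan and the third Sox6 probe set, 5 with the contrast's 4 arrays alone, and 5 where a log2 change of at least 1 was also required. The other 50 count values outside the leave-one-out fits were within 1.5 times the main count. The labels do not say whether arrays of the same number belong together, and this was not tested. Deviations of same-numbered arrays correlated at -0.30 to 0.37 over the 6 pairs of groups. The value was 0.37 between EA and YF with hormone. For unstimulated EA it was -0.21 with EA with hormone and -0.30 with YF with hormone. A replicate block gave 8 in the averaged comparison, 5 with hormone and 6 without it. A further block that crossed the numbers of unstimulated EA, not planned beforehand, gave 9, 5 and 6. Of 280 values of single genes outside the leave-one-out fits, 261 kept their direction and their side of the threshold, 11 lost a call and 4 gained one. Those lost were of Acan, Comp and the third Sox6 probe set without hormone and of Matn2 on average, and those gained were of Acan with hormone and Matn2 with and without it. Signs that changed were those of hormone differences near 0. The Matn2 response in EA cells was -0.016 with centred arrays and -0.071 as the mean over its probe sets, Sox5 in YF cells was 0.027 with quantile normalization, and Sox6 in EA cells was -0.053 as the mean over its probe sets; the cause was not tested. With arrays left out, Matn2 in EA cells ran from -0.15 to 0.20, Sox5 in YF cells from -0.086 to 0.044, Sox6 in EA cells from -0.00089 to 0.083 and in YF cells from -0.039 to 0.26, and the Sox6 difference of responses from -0.21 to 0.080. For genes in the low group, array values do not tell a low level from none.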

Other observations

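Tendon is another connective tissue lineage of the same origin, and 3 of its 6 markers passed in the averaged mutant comparison (limma), 1 higher and 2 lower in EA cells, where 22.9% of all named genes passed. Thbs4, a matrix thrombospondin related to Comp, read 11.47 and 11.12 in EA cells with hormone and 11.36 and 11.38 in EA cells without it, against 7.06 and 7.24 in YF cells with hormone and 5.97 and 6.29 in YF cells without it. Its difference was 4.69 (SE 0.11, limma adjusted p = 3.48e-05), opposite in sign to that of Comp. Tnmd, a surface protein of tendon cells, differed by -1.89 and Tnc, an adhesive matrix protein, by -1.01 (adjusted p = 0.0047 and 0.00523, limma). The Tnmd mean in EA cells with hormone, 3.51, lay in the low group. The tendon regulators Scx and Mkx did not pass, with differences of -0.14 and 0.01.

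Osteoclasts, the cells that resorb bone, were read from 6 markers. Acp5, Calcr, Oscar and Dcstamp lay below the bound of the low group in all 4 groups. The protease gene Mmp9, also made by other cells, was higher in EA cells by 2.92 and Ctsk differed by -1.402 (adjusted p = 0.000845 and 0.0104, limma). Of 5 measured adipocyte markers, Cebpa was higher by 0.76 and Lpl differed by -0.60 (adjusted p = 0.0403 and 0.00536, limma), while Pparg differed by -0.62 and did not pass (adjusted p = 0.0579). The osteoclast and adipocyte differences are averaged over treatments, where 22.9% of all named genes passed.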
